A study of Mus musculus with 6 samples.

Results

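Chemokine genes were examined in RNA sequencing of mouse cultures labelled as female germ line stem cells, mitotic germ cells taken from the ovary and grown in vitro. The 10 genes, Ccl1, Ccl2, Ccl3, Ccl4, Ccl7, Ccl9, Ccl17, Cxcl2, Cxcl10 and Xcl1, were taken by symbol from the deposited table, and all 10 were found among its 54231 usable genes. The treated group received C89, for which the labels give only this code name, and the control group DMSO. Profiles are of 8 h, with 3 libraries in each group, and the labels name no mouse strain, age or dose. Nothing in them says that replicates came from separate cultures, so the p-values cover the spread among these libraries alone, which could be technical.

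Chemokines are small secreted proteins that draw leukocytes along a gradient by binding G protein-coupled receptors on those cells. They are classed by the spacing of their first conserved cysteines into CC, CXC and C (XCL) ligands. Many of their genes are switched on within hours by inflammatory signals through NF-kB, interferon-activated factors and AP-1, and many of their messages are short-lived. Mast cells, macrophages, T cells and fibroblasts are known sources, and the CC ligands here include CCL2 and CCL7, which attract monocytes. CXCL10 is an interferon-induced ligand that attracts activated T cells and NK cells.

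Recovered reads assigned to genes numbered 7772060 to 17938295 in C89 libraries and 17826569 to 21763459 in DMSO libraries. Values below are normalized read counts, reads divided by 1 size factor per library, in which 1 read is worth 0.886 to 2.03 in C89 and 0.667 to 0.797 in DMSO libraries. Between the second and the third C89 library only 0.686% of genes differed by more than sampling noise, whereas the other pairs of 1 group differed in 25.7% to 48.4% of genes. Both were kept, and should they not be independent, the C89 spread and the p-values are too small. Of 5 germ cell markers, Dazl had no read in any library, and Ddx4 lay between 0 and 6.20 in C89 and between 0.797 and 2.67 in DMSO libraries. Pou5f1 had 4 reads in all, Piwil2 lay between 117 and 171 in C89 and between 145 and 176 in DMSO libraries, and Ifitm3, which other cells also express, lay between 12.2 and 15.9 in C89 and between 1.59 and 74.1 in DMSO libraries. Of the blood cell genes, Kit and Cpa3, which mast cells carry, were at means of 42170 and 20899 in C89 and 30384 and 7285 in DMSO libraries, while the mast cell receptor gene Ms4a2 had no read. Fewer cells of a type and less RNA per cell cannot be told apart in such bulk samples.

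Cxcl10 was the chemokine gene of the set that changed, and it fell. The other 8 tested members were not called, and most rested on few reads. Of the 9 members that reached the level for testing, a mean of 1 normalized count over the 6 libraries, 1 was lower and 0 were higher at a limma adjusted p under 0.05, as also by edgeR and DESeq2. DESeq2 gave no adjusted p for Ccl3 and Cxcl2. Over all 18954 genes tested, 26.1% were called, 13.6% as lower and 12.5% as higher. Among genes with a mean of 5 to 30, where most of the tested members lie, 15.29% were called, and among those of 1 to 5 it was 3.26%. Cxcl10 itself lies among genes with a mean of 30 to 100, of which 31.49% were called. The groups did not overlap in 3 of the 9 members, Cxcl10, Ccl1 and Cxcl2, which is 33.3% against 40.9% of all genes tested. The median log2 fold change of the 9, C89 over DMSO on the log2(value + 1) scale, was -0.47, beside -0.03 over all genes tested. That scale understates the change of genes with few reads. Without the third DMSO library 2 members were called lower, Cxcl10 and Ccl2.

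The stretches of 250 bases before the start site show which recognition letters the members carry, and 4 are printed here because they hold a match. They come from RefSeq on build GRCm38.p6, which matched 7 of the 10 symbols. They read 5′ to 3′ along the gene, and capitals mark every match to the motifs named below.
Cxcl10, chr5:92348890-92349139, minus strand: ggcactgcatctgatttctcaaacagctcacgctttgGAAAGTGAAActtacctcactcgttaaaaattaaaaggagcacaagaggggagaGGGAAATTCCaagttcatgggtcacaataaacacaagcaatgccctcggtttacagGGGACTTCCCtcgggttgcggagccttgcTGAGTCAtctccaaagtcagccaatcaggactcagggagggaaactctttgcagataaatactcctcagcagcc
Cxcl2, chr5:90903649-90903898, plus strand: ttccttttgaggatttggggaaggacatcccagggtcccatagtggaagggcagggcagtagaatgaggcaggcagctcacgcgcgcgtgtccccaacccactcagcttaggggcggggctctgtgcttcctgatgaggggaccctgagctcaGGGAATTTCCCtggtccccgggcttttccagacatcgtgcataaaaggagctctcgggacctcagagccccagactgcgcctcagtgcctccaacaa
Ccl9, chr11:83578637-83578886, minus strand: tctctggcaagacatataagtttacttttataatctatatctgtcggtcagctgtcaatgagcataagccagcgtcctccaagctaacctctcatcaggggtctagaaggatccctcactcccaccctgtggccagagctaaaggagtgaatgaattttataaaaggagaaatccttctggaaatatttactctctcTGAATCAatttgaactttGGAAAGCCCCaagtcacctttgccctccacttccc
Ccl17, chr8:94810203-94810452, plus strand: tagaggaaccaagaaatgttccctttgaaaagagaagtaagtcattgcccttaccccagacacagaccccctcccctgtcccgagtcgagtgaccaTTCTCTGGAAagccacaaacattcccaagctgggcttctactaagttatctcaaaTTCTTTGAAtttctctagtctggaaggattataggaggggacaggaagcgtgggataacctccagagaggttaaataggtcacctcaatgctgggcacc

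Each motif was sought on both strands. The Cxcl10 stretch held an interferon-stimulated response element (TTTCNNTTTC) at -213 to -204, matches to the kappaB consensus of NF-kB at -159 to -150 and -103 to -94, and an AP-1 site (TGANTCA) at -74 to -68, where -1 is the base before the start site. In Cxcl2 a kappaB match at -97 to -88 overlapped another at -96 to -87. Ccl9 had an AP-1 site at -53 to -47 and a kappaB match at -35 to -26. The Ccl17 stretch held letters bound by STAT factors, TTCNNNNGAA at -154 to -145 and TTCNNNGAA at -99 to -91. The stretches of Ccl1, Ccl3 and Xcl1 held none of these letters. Over all 32851 stretches of that length, 3.9% held the kappaB consensus, 6.75% the AP-1 site, 2.98% the interferon element, 5.85% TTCNNNNGAA and 7.02% TTCNNNGAA. A match is a description of the letters and not a measured binding site.

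Of the CXC ligands, Cxcl10 (ENSMUSG00000034855, chromosome 5) had 26.6, 24.4 and 21.7 normalized counts in C89 libraries, against 65.4, 110.0 and 98.7 in DMSO libraries. Behind these lay 30, 12 and 17 reads in C89 and 98, 138 and 124 reads in DMSO libraries. Every C89 library lay below every DMSO library, the highest C89 value being under the lowest DMSO value. Means were 24.2 ± 2.46 in C89 and 91.3 ± 23.2 in DMSO (SD, n = 3 each), 3.77-fold lower with C89. The log2 fold change was -1.84 (SE 0.26, 95% interval -2.40 to -1.29, limma adjusted p = 3.61e-04). The authors' deposited table gives a log2 fold change of -1.43 and an adjusted p of 4.35e-06. Counting of reads by strand is not given in the sources used here, and Art3 overlaps Cxcl10 on the opposite strand in GENCODE M21. Art3 was at 0.886, 4.06 and 0 in C89 libraries and at 0 in all DMSO libraries.

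Cxcl2, a neutrophil attractant read by CXCR2, had 0.886, 2.03 and 2.55 normalized counts in C89 libraries, against 0.667, 0.797 and 0 in DMSO libraries. That is 4 reads over the C89 group and 2 over the DMSO group. The groups do not overlap, but each value is the worth of 0 to 2 reads, and the interval of its log2 fold change of 0.92 reached from -0.63 to 2.47 (limma adjusted p = 0.381). No difference was detectable at this depth. The lymphocyte attractant gene Xcl1, the only C ligand of the set, had 0 reads in C89 libraries and 1 read in DMSO libraries, in the first of them. A count of 0 over the C89 group allows up to 1.25 normalized counts, taking 3 reads as the floor, and over the DMSO group the floor was 0.748. Xcl1 lay under both floors and was not tested.

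**Figure D1:**
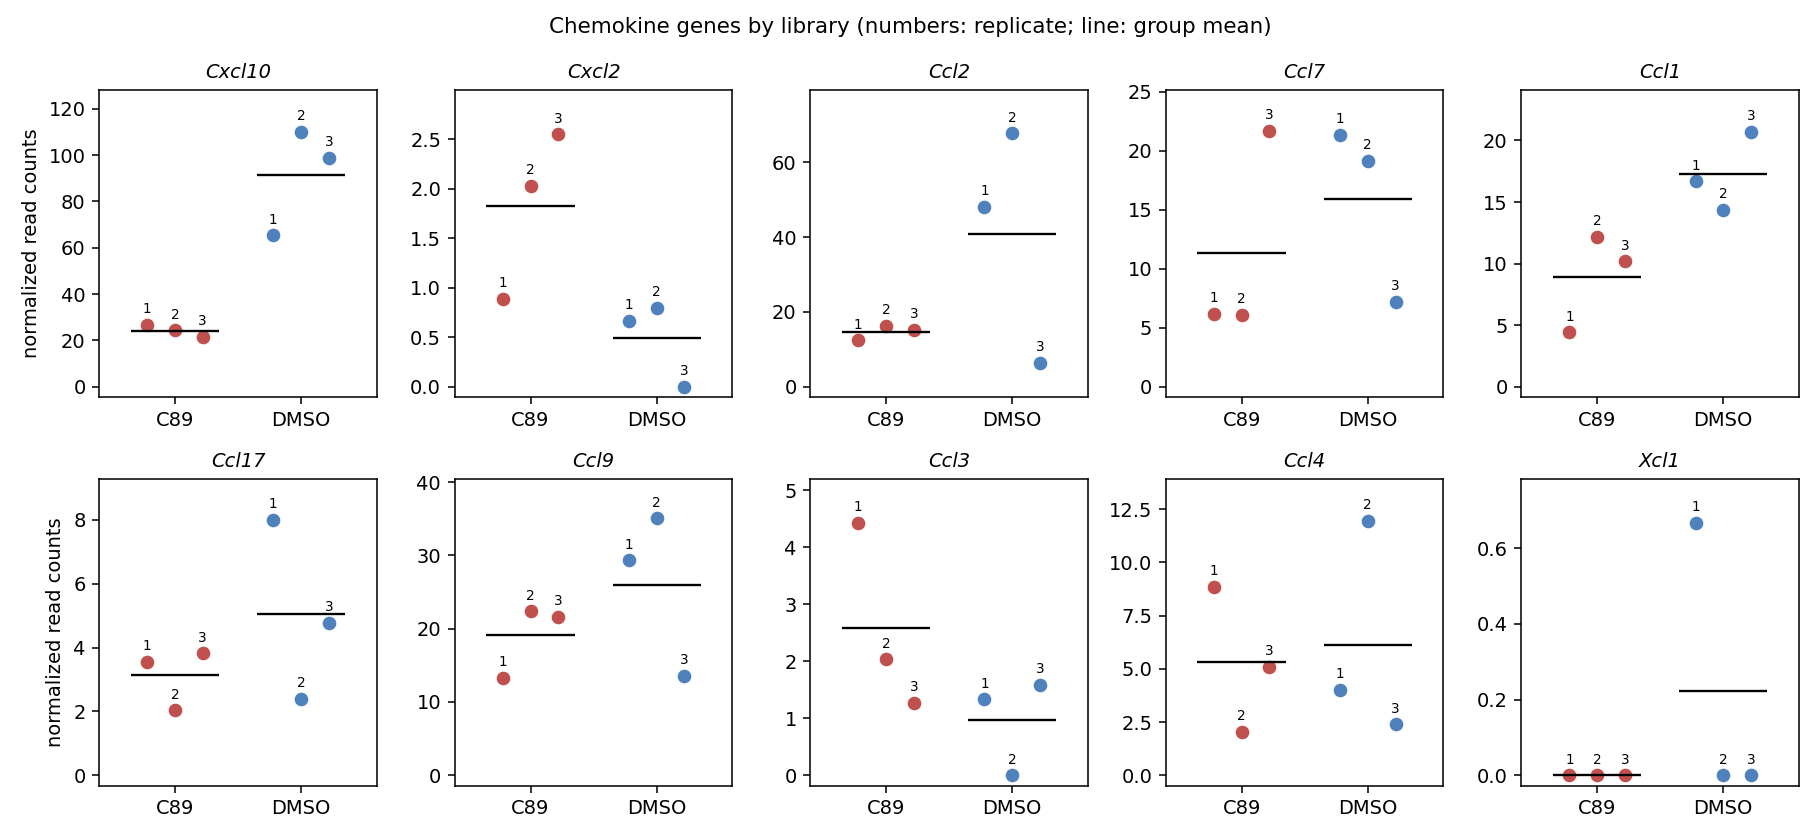
Normalized read counts of the 10 chemokine genes (vertical axes, 1 scale per gene) in the C89 libraries (red) and DMSO libraries (blue), with numbers for replicates and lines for group means. The 3 C89 libraries lie below the 3 DMSO libraries for Cxcl10, while for Ccl2, Ccl7 and Ccl9 the third DMSO library lies below the other DMSO libraries.

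Ccl2 and Ccl7 encode monocyte attractants read mainly by CCR2, and lie with Ccl1, Ccl3, Ccl4 and Ccl9 on chromosome 11. Ccl2 had 12.4, 16.3 and 15.3 normalized counts in C89 libraries, against 48.0, 67.7 and 6.37 in DMSO libraries. The groups overlapped, since the third DMSO library was below every C89 library. With all libraries the log2 fold change was -0.91 (SE 0.64, 95% interval -2.30 to 0.48, limma adjusted p = 0.332). Without the third DMSO library it was -1.90 (limma adjusted p = 0.00298), and without the second DMSO library it was -0.29 (limma adjusted p = 0.808), so single libraries decide this value. Ccl7 had 6.20, 6.10 and 21.7 in C89 libraries, against 21.3, 19.1 and 7.16 in DMSO libraries. In each group 1 library, the third, stood apart from the other two and on the other group's side. The log2 fold change of Ccl7 was -0.55 (95% interval -1.74 to 0.63, limma adjusted p = 0.50).

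The third DMSO library also held little RNA of fibroblast markers. Summed over the 8 markers, of which Lum had no read, the level was 51.4, 83.3 and 129.95 in C89 libraries, against 1248, 2400 and 132 in DMSO libraries. Of the 7 tested markers 3 fell by limma, and 5 were called by edgeR and 5 by DESeq2. Limma called 13.6% of all genes tested as lower and 26.1% in either direction. Ccl2 and the summed markers ranked the DMSO libraries in the same order, while Cxcl10, at 98.7 in the third DMSO library, did not follow. They did not rank the C89 libraries alike, where Ccl2 was at 12.4, 16.3 and 15.3. At marker sums of 129.95 in the third C89 and 132 in the third DMSO library, Ccl2 was at 15.3 and 6.37. The part of fibroblast RNA in the Ccl2 and Cxcl10 values was not tested.

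Ccl1 encodes a ligand of CCR8, found on T helper 2 and regulatory T cells. It had 4.43, 12.2 and 10.2 normalized counts in C89 libraries, against 16.7, 14.3 and 20.7 in DMSO libraries. All C89 libraries were below all DMSO libraries, and the log2 fold change was -0.96 (SE 0.44, 95% interval -1.90 to -0.01). It did not pass the test over all genes (limma adjusted p = 0.129), and its adjusted p ran from 0.0787 to 0.339 over the other settings and left-out libraries. Ccl17, whose protein draws CCR4-bearing T cells, had 3.54, 2.03 and 3.82 in C89 libraries, against 8.00, 2.39 and 4.78 in DMSO libraries. Its groups overlapped, with a log2 fold change of -0.47 (95% interval -1.73 to 0.79, limma adjusted p = 0.602).

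Ccl3, Ccl4 and Ccl9 encode inflammatory CC ligands. Ccl9, a myeloid attractant of mice read by CCR1, had 13.3, 22.4 and 21.7 normalized counts in C89 libraries, against 29.3, 35.1 and 13.5 in DMSO libraries. The third DMSO library was again the low one and lay inside the C89 range, and the log2 fold change was -0.36 (95% interval -1.21 to 0.50, limma adjusted p = 0.550). Ccl4 had 8.86, 2.03 and 5.10 in C89 libraries, against 4.001, 11.95 and 2.39 in DMSO libraries. The groups overlapped, with a log2 fold change of -0.09 (95% interval -1.49 to 1.31, limma adjusted p = 0.938). Ccl3 had 4.43, 2.03 and 1.27 in C89 libraries, against 1.33, 0 and 1.59 in DMSO libraries, or 7 and 4 reads in all. Both groups overlap and the interval of its log2 fold change of 0.88 reached from -0.67 to 2.43 (limma adjusted p = 0.404). The intervals of Ccl3, Ccl4, Ccl7, Ccl9 and Ccl17 are wide, and their p-values do not show that C89 left these genes as they were.

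**Figure D2:**
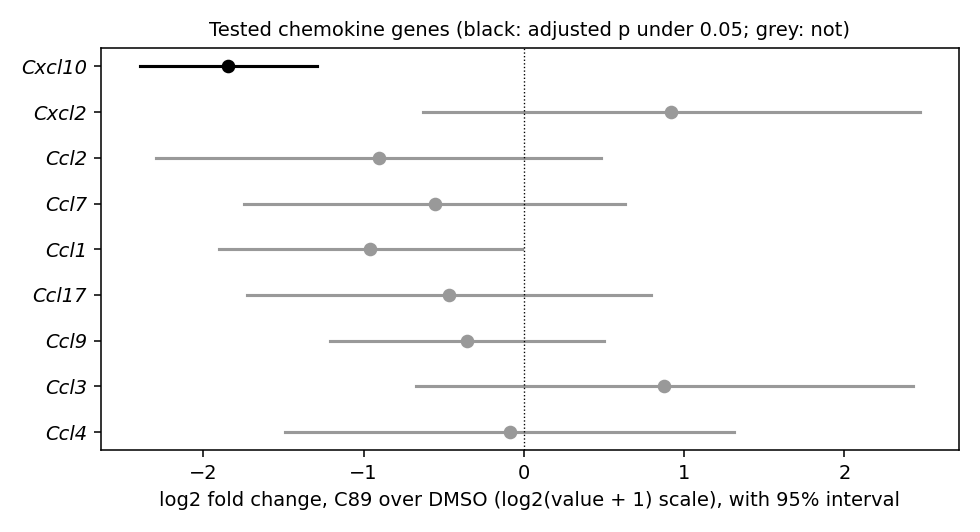
Log2 fold changes, C89 over DMSO on the log2(value + 1) scale (horizontal axis), of the 9 tested chemokine genes, with 95% intervals from limma. Cxcl10 at -1.84 is the gene called at an adjusted p under 0.05, and the intervals of the others reach 0 or end close to it, as Ccl1 does at -0.01.

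Summed over the 10 genes, the level was 80.6, 89.4 and 103 normalized counts in C89 libraries, against 195, 261 and 155 in DMSO libraries. Without Cxcl10 the sums were 54.0, 65.0 and 81.5 in C89 libraries, against 130.03, 151 and 56.5 in DMSO libraries, and the groups overlapped. Cxcl10 made up 21.0% to 33.0% of the sum in C89 libraries and 33.4% to 63.6% in DMSO libraries. Levels between genes can be set side by side only per length, here per kilobase of all annotated exons of a gene in GENCODE M21. In C89 libraries Ccl7, Ccl2 and Cxcl10 led, at 14.1 ± 11.2, 12.9 ± 1.76 and 10.7 ± 1.09 normalized counts per kilobase (SD, n = 3). In DMSO libraries Cxcl10 led at 40.6 ± 10.3, before Ccl2 at 35.8 ± 27.5 and Ccl7 at 19.8 ± 9.52. In neither group were these 3 neighbours in order apart beyond the range of their libraries. The next genes, Ccl4, Ccl9, Ccl17 and Ccl1, also overlapped in range from one to the next, at 3.77 to 8.07 per kilobase in C89 and 7.28 to 9.84 in DMSO libraries. Ccl3, Cxcl2 and Xcl1 had the lowest means in both groups. In C89 libraries Ccl3 overlapped Ccl1 in range, as Ccl4 overlapped Cxcl10. Exon lengths include transcripts with retained introns, as in Cxcl10 and Ccl2, which lowers their values per kilobase.

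Many chemokine messages carry AU-rich letters in the 3′ untranslated region, to which decay factors such as tristetraprolin (Zfp36) bind. The longest annotated 3′ untranslated region held the letters ATTTA 11 times in Cxcl2, 5 times each in Ccl3 and Ccl9, 3 times in Cxcl10, and 0 times in Ccl1 and Ccl17. Of 21170 genes, 65.63% held it at least once. The longer run TTATTTATT, present in 7.571% of genes, occurred 4 times in Cxcl2 and in no other member. The 7 genes examined for control of message stability were Zfp36, Zfp36l1, Zfp36l2, Khsrp, Hnrnpd, Zc3h12a and Elavl1. Of these, 0 were called by limma, edgeR or DESeq2, and 1 had an unadjusted p under 0.05 in limma. At their levels limma called 38.71% of all genes tested with means of 100 to 1000, and 40.95% of those above. With scaling by total reads 2 of the decay factor genes, Hnrnpd and Khsrp, were lower. That scaling called 4094 genes lower over all genes, in place of 2581.

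Of 28 further chemokine ligand genes, 9 had no read in any library, 12 were tested, 1 rose and 2 fell, with a median log2 fold change of -0.92. The share called by limma over all genes tested was 26.1%. The calls numbered 3 by limma, 6 by edgeR and 4 by DESeq2. Ccl25, a thymic and gut ligand of CCR9, had 296, 282 and 309.6 normalized counts in C89 libraries, against 121, 110.0 and 104 in DMSO libraries. All C89 libraries were above all DMSO libraries, 2.65-fold on the means (log2 fold change 1.40, SE 0.13, limma adjusted p = 3.33e-05). Ppbp, the platelet ligand of CXCR2, fell to 6.20, 4.06 and 3.82 in C89 libraries, against 36.0, 23.1 and 26.3 in DMSO libraries (log2 fold change -2.37, SE 0.40, limma adjusted p = 0.00113). Ccl5, a T cell and monocyte attractant, fell to 16.8, 24.4 and 34.4 in C89 libraries, against 44.7, 62.1 and 54.9 in DMSO libraries (log2 fold change -1.11, limma adjusted p = 0.0159). The call of Ccl5 was lost without the second DMSO library (limma adjusted p = 0.0671) or the first C89 library (limma adjusted p = 0.0556).

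The neutrophil ligand genes Cxcl1, Cxcl3 and Cxcl5, the last pair chosen after their values were seen, were low in the third DMSO library, as Ccl2 was. Cxcl1 had 0, 6.10 and 0 in C89 libraries, against 67.4, 97.2 and 0.796 in DMSO libraries (log2 fold change -3.58, SE 1.25, limma adjusted p = 0.0523). Cxcl3 had 1.77, 2.03 and 1.27 in C89 libraries, against 13.3, 14.3 and 2.39 in DMSO libraries (limma adjusted p = 0.0662). Cxcl5 had 0, 2.03 and 1.27 in C89 libraries, against 15.3, 23.1 and 0.796 in DMSO libraries (limma adjusted p = 0.0866). For Cxcl1 and Cxcl5 the third DMSO library lay inside the C89 range. Without the third DMSO library the log2 fold changes were -5.41 for Cxcl1, -2.47 for Cxcl3 and -3.38 for Cxcl5 (limma adjusted p = 0.00134, 0.00981 and 0.00515), and 6 further ligand genes were called lower in place of 2. Without the first DMSO library the same log2 fold changes were -2.79, -1.43 and -1.79 (limma adjusted p = 0.214, 0.227 and 0.273). Single libraries thus decide these values. With all libraries, edgeR called Cxcl1, Cxcl3 and Cxcl5 lower (adjusted p = 0.0182, 0.0454 and 0.0398), DESeq2 called Cxcl5 of these (adjusted p = 0.0321), and limma with scaling by total reads called Cxcl1 and Cxcl3 (adjusted p = 0.0448 and 0.048).

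**Figure D3:**
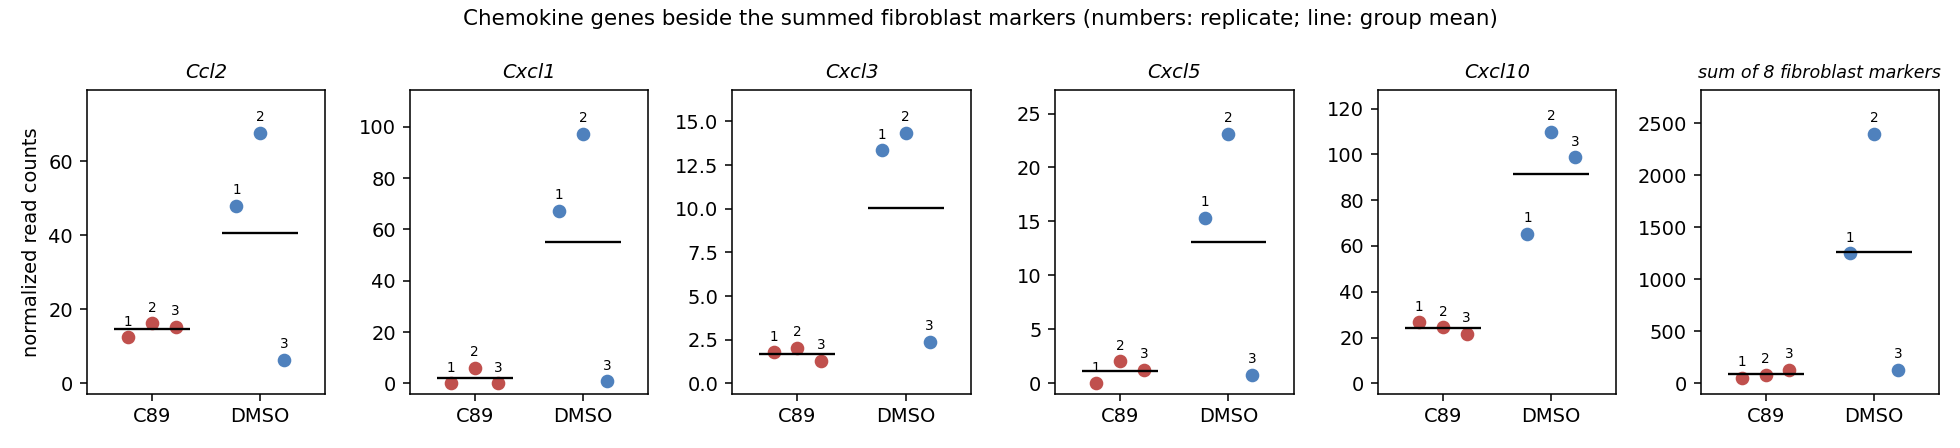
Normalized read counts (vertical axes, 1 scale per panel) of Ccl2, Cxcl1, Cxcl3, Cxcl5 and Cxcl10 and of the sum of 8 fibroblast markers, by library, with C89 in red and DMSO in blue, numbers for replicates and lines for group means. The third DMSO library is low for Ccl2 (6.37), Cxcl1 (0.796), Cxcl3 (2.39), Cxcl5 (0.796) and the markers (132), and not for Cxcl10 (98.7).

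Chemokine receptors were measured in the same libraries, and those read by the members were mostly near 0. Of 19 receptor genes, 12 were tested, 2 rose and 1 fell (median log2 fold change -0.86). The share called over all genes tested was 26.1%. Cxcr3, the receptor of CXCL10, had 0 reads in C89 and 1 read in DMSO libraries. Ccr1 and Xcr1 had 0 normalized counts in C89 and no more than 1.59 in any DMSO library, and Ccr8 had 2 reads in C89 and 5 in DMSO libraries. Ccr2 had 0 reads in C89 libraries and 11 in DMSO libraries, all of them in the second. That library also held 12.7 normalized counts of the T cell marker Cd3e, against 0 in the other DMSO libraries, and 49.4 and 7.17 of the macrophage markers Lyz2 and C1qa, against 1.59 to 4.67 and 0. Of the other macrophage markers, Adgre1, Cd68, Mrc1 and, by 1 read, Csf1r were also highest there among DMSO libraries. Cd14 and Itgam were not, at 2.39 and 0.797 there. Cd14 was at 4.67 in the first DMSO library and Itgam at 1.59 in the third.

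Cxcr2, the receptor of CXCL2, PPBP and other neutrophil ligands, had 4655, 4749 and 4479 normalized counts in C89 libraries, against 2015, 1872 and 970.4 in DMSO libraries. Every C89 library was above every DMSO library, 2.86-fold on the means (log2 fold change 1.59, SE 0.20, limma adjusted p = 2.20e-04). Its call held without any 1 of the 6 libraries. Ccr7, which guides cells to lymph nodes, had 204, 217 and 189.8 in C89 libraries, against 123, 158 and 54.1 in DMSO libraries (log2 fold change 0.99, limma adjusted p = 0.0261). That call was lost without any 1 of the C89 libraries (limma adjusted p = 0.0723 to 0.109). Ccr4, the receptor of CCL17, had 76.2, 30.5 and 33.1 in C89 libraries, against 22.0, 35.9 and 14.3 in DMSO libraries, with overlapping groups (limma adjusted p = 0.125). Cxcr4 fell to 34.5, 40.6 and 34.4 in C89 libraries, against 60.0, 57.4 and 71.6 in DMSO libraries (log2 fold change -0.77, limma adjusted p = 0.0240). Its adjusted p was 0.0576 without the first C89 library, 0.0754 without the third C89 library, 0.0792 with the third DMSO library left out, and 0.0692 by DESeq2.

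Of 5 atypical receptors, which take up chemokines without G protein signalling, 4 were tested and 1 fell. The share of all genes tested that limma called was 26.1%, with 13.6% lower. Ackr3, the scavenger of CXCL12, had 104, 93.5 and 116 normalized counts in C89 libraries, against 194, 218 and 201 in DMSO libraries (log2 fold change -0.97, SE 0.15, limma adjusted p = 7.14e-04). Among 18 genes of signalling behind the receptors 2 rose and 6 fell. Apart from Gnaq and Rgs16 they had means of at least 100. At means of 100 to 1000, 38.71% of all genes tested were called in either direction, and above that 40.95%. Dock2, a Rac activator of migrating leukocytes, rose 1.64-fold, and the arrestin gene Arrb1, the receptor kinase gene Grk6 and the G protein regulator gene Rgs2 fell (log2 fold changes -0.86, -0.55 and -1.02). Of 7 genes for chemokine processing and binding 1 rose, Srgn, the proteoglycan core of secretory granules (log2 fold change 0.41, limma adjusted p = 0.0314). Its call was lost without the third DMSO library (limma adjusted p = 0.0668), without any 1 of the C89 libraries (0.0559 to 0.125), by edgeR (0.0528) and with scaling by total reads (0.136). The median log2 fold change of the 7 was -0.41, and edgeR called 0 of them higher and 1 lower. Limma called 12.5% of all genes tested as higher. The matrix protease gene Mmp2, the proteoglycan gene Sdc4 and the peptidase gene Dpp4 were not called, at log2 fold changes of -1.68, -2.84 and -1.68 (limma adjusted p = 0.0643, 0.111 and 0.123).

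Of 11 genes of NF-kB subunits, which bind the kappaB letters printed above, and of their inhibitors, 7 fell and 1 rose, with a median log2 fold change of -0.68. Of all tested genes at their levels, 38.71% were called in either direction at means of 100 to 1000 and 40.95% at means above that. The list held 7 lower and 1 higher also without any 1 of the 6 libraries. Nfkb2, a subunit gene of the non-canonical pathway, had 823, 797 and 823 normalized counts in C89 libraries, against 1597, 1684 and 1919 in DMSO libraries (log2 fold change -1.09, SE 0.09, limma adjusted p = 1.55e-05). Rela and Relb, further subunit genes, had log2 fold changes of -0.68 and -0.78 and fell. So did the inhibitor genes Nfkbia, Nfkbie and Tnfaip3, at -0.56, -0.73 and -1.08. Nfkb1 did not pass the test, at 6414, 5168 and 5352 in C89 libraries and 5638, 5925 and 5789 in DMSO libraries (limma adjusted p = 0.789). The inhibitor-like gene Bcl3 rose, with a log2 fold change of 1.15 (limma adjusted p = 0.0029). Transcript levels do not measure NF-kB activity.

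Of 14 further transcription factor genes known from chemokine promoters, 5 rose and 2 fell (median log2 fold change 0.37). Apart from Irf4 and Fos they had means of at least 100. At means of 100 to 1000, 38.71% of all genes tested were called in either direction, and above that 40.95%. The interferon factor genes Irf1 and Irf7, whose products act on the interferon element, rose 1.91-fold and 2.03-fold, and Irf3, a further factor of that element, fell (log2 fold change -0.37, limma adjusted p = 0.00895). Irf1 had 911, 786 and 699 normalized counts in C89 libraries, against 427, 459 and 368 in DMSO libraries (limma adjusted p = 2.60e-04). Egr1 and Nfatc1 rose 3.98-fold and 1.73-fold. Stat6, a factor of the interleukin 4 response known for Ccl17, had a log2 fold change of -0.21 (95% interval -0.39 to -0.02, limma adjusted p = 0.102).

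**Figure D4:**
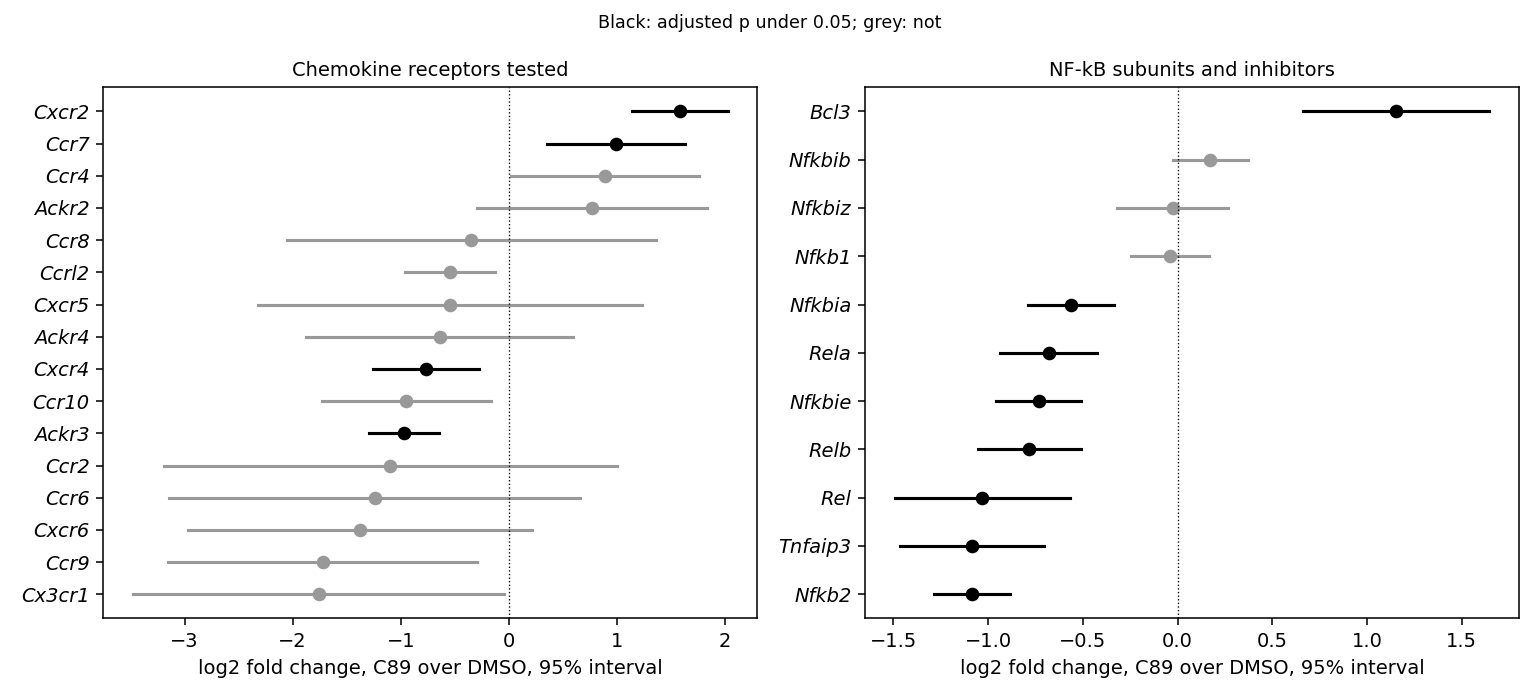
Log2 fold changes, C89 over DMSO (horizontal axes), with 95% intervals from limma, of the 16 tested classical and atypical chemokine receptors (left) and the 11 NF-kB genes (right), black where the adjusted p was under 0.05. Cxcr2 lies highest among the receptors at 1.59, and 7 NF-kB genes lie between -1.09 and -0.56.

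Markers of cell types known to make chemokines moved in both directions. Of 8 macrophage markers 6 were tested and 1 rose, Adgre1, at 2252, 2014 and 2252 normalized counts in C89 libraries, against 849.6, 1052 and 850.2 in DMSO libraries. The macrophage receptor gene Csf1r was at 0.886, 0 and 2.55 in C89 libraries and 0, 0.797 and 0 in DMSO libraries. Summed over the 8 macrophage markers the level was 3721 to 3988 in C89 and 1802 to 2711 in DMSO libraries, nearly all of it Adgre1 and Cd68. The median log2 fold change of the 6 tested was -0.59, and Lyz2, Cd14, C1qa and Itgam, none of them called, averaged 4.15, 0, 0 and 0 in C89 and 18.6, 2.35, 2.39 and 0.796 in DMSO libraries. The 8 T and NK cell markers summed to 154 to 182 in C89 and 152 to 285 in DMSO libraries. Lck made up most of the sum, at 224 of 285 in the second DMSO library, which also held 7.97 to 15.1 of each of Cd3e, Cd3g, Cd4, Cd8a and Trac. Of these markers 0 of the 6 tested were called by limma, edgeR or DESeq2, with 0 at an unadjusted p under 0.05 in limma. Mast cell markers rose in 4 of the 5 tested of 9, and their sum was 83993 to 95206 in C89 and 49438 to 59269 in DMSO libraries. Nearly all of that sum was Kit, Gata2 and Cpa3. Over all libraries Fcer1a and Mcpt4 had 1 read each, Tpsb2 had 2 and Ms4a2 had 0. For comparison, 12.5% of all genes tested were called higher. The part of these cell types in the fall of Cxcl10 was not tested.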

How the data were processed

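The authors deposited 1 table for the 6 libraries, 3 of C89 and 3 of DMSO at 8 h. The deposited values are a signal: reads over 1 size factor per library, as 100% of the 119020 values above 0 came out as whole reads (tolerance 0.01). Its log2 fold changes and its adjusted p-values were made by the authors and bear DESeq2 column names per the file headers. The submitters' processing notes list HISAT2 and DESeq2 with no version. Build, annotation and the counting step: not given in the sources used here. Per the labels' protocol, Trizol RNA gave mRNA libraries read from both ends. Of 54232 genes 1 was left out for text in a cell, and 6 unnamed columns were not used. Symbols came from GENCODE M21 by identifier (54078 matched, 153 did not), and the members were matched on the deposited symbols.

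The test was limma 3.58.1 (R 4.3.3, trended prior variance) on log2(value + 1), over the 18954 genes whose mean was 1 or more. Group was the single term, and p-values were adjusted by Benjamini-Hochberg over all of these genes, with 0.05 as threshold. The planned tool for raw counts was not needed. Alternatives were edgeR 4.0.16 on the recovered reads, with 4652 calls, and DESeq2 1.42.0, with 4511 calls, and also scaling, filters, pseudocounts, a replicate block, left-out libraries and the nearly alike C89 libraries summed. The procedure was tested on simulated data, in which every changed gene had a higher mean than all members but Cxcl10. That test thus cannot show how often a change in the other members would be missed. Genes named beyond the members are the 4 with the lowest p of each list, the receptors of the members and main NF-kB genes, and any others were chosen after their values were seen. A receptor gene that this rule names is not reported here. The members and lists were chosen with earlier results of these data known. Intervals are those of limma, from the spread among the libraries, and floors of 3 reads cover counting error only, since reads are not independent molecules. Depth limits most members, which held 1 to 419 reads over all libraries. Figures were drawn with matplotlib 3.10.9.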

Additional observations from a re-analysis of the deposited data

How the results depend on the processing

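Cxcl10 stayed lower and called under every alternative run, at log2 fold changes of -2.07 to -1.69 with adjusted p from 6.21e-06 to 0.00396, and with the nearly alike C89 libraries summed its adjusted p was 0.00344. No other member was called under any setting but Ccl2 without the third DMSO library, so the members called numbered 1 to 2 over the left-out libraries. Cxcl2 fell under the level for testing with a mean of at least 10, with either of the nearly alike C89 libraries left out or both summed, and Ccl3, Ccl4 and Ccl17 did so with a mean of at least 10. Over all genes the count was 4946, and 3139 to 4752 with 1 library left out (1481 to 2363 higher, 1658 to 2389 lower), 3274 with the 2 nearly alike C89 libraries summed (1548 higher), and 1512 higher against 4094 lower with scaling by total reads, in place of 2365 and 2581. That scaling put the median log2 fold change of all genes at -0.17 in place of -0.03. Genes called in the pathway lists numbered 31, and 26 to 35 with 1 library left out. The replicate number as a block gave 4092 calls (1 member, Cxcl10, adjusted p = 7.59e-04). Same-numbered libraries deviated with correlations of -0.13, -0.105 and -0.085, and the other pairs with 0.012 to 0.112. These values show no sign that the numbers pair the libraries, but with 3 libraries per group they cannot exclude it. Under the block Cxcl1 was called lower (limma adjusted p = 0.00831) and Cxcr4 was not called (limma adjusted p = 0.0504). The cause of these shifts was not tested.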
